A study of Mus musculus with 24 samples.

Results

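The hyaluronan genes followed here are the 3 hyaluronan synthases (Has1, Has2 and Has3), 3 hyaluronidases (Hyal1, Hyal2 and Hyal3) and Cd44, the main cell surface receptor for hyaluronan. They were chosen by gene symbol, through the accession that each array probe carries, and are 7 of 18539 genes named on the array, with 11 probes of 41174. Where a gene had several probes, the brightest was used, which gave the same probe in both tissues for all 7 genes. The samples were endothelial cells sorted from the aorta and from skeletal muscle of male C57BL/6J mice (WT) and of galectin-3 knockout mice on that background (KO, B6.Cg-Lgals3tm1Poi/J, a germline deletion), as CD105+/CD45- cells. At 8 weeks of age the mice went on a high-fat diet (HFD, 60% of calories from fat) or stayed on chow (12%) for 8 weeks. Each of the 24 arrays held RNA from about 10000 cells pooled from 3 to 4 mice, and the 8 groups of tissue, strain and diet had 3 arrays each, 1 from each of 3 experiments. The aorta and muscle cells of a pool came from the same mice.

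Hyaluronan is a long sugar polymer that is made at the plasma membrane by the synthases and extruded directly into the space around the cell, where it forms part of the endothelial glycocalyx and of the matrix of the vessel wall. The synthases use cytosolic UDP-glucuronic acid and UDP-N-acetylglucosamine. The chains are cut by hyaluronidases, of which Hyal2 is anchored at the cell surface and cuts long chains while Hyal1 works mainly in the lysosome, and the role of Hyal3 is less clear. CD44 binds the chains and links them to the actin cytoskeleton through ezrin, radixin and moesin.

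Levels are given as log2 of the background-corrected signal over the array's 75th percentile of signal, so 0 is the 75th percentile and each unit is a doubling. Levels of different probes were not compared with each other. The percentile itself ranged from 2390 to 5938 intensity units over the arrays, and 59.5% to 75.7% of spots were well above background. The 12 endothelial markers (Cdh5, Kdr, Vwf, Pecam1 and others) were above background on every array of both tissues, with a mean level of 2.05 to 4.07 in aorta and 4.24 to 4.68 in muscle. The 10 fibroblast markers (Col1a1, Pdgfra, Lum and others) were also above background on every aortic array, with a mean level of 3.89 to 5.66, and reached -0.53 to 3.18 in muscle. The 10 skeletal muscle fibre markers (Ckm, Myh4 and others) were above background on every muscle array, with a mean level of 0.75 to 3.73. The sorted cells of neither tissue thus carried endothelial RNA alone. The probe for Lgals3, the deleted gene, was above background on 24 of 24 arrays and was higher on arrays labelled KO than on those labelled WT by 1.28 (SE 0.28, limma adjusted p = 0.0900). The position of this probe within the gene was not examined, so whether it reads the deleted stretch is unknown and it does not check the labels. At 17 probes chosen because they separated the labelled strains without overlap in experiments 2 and 3, the arrays of those experiments lay between -0.11 and 0.07 (WT) or 0.96 and 1.06 (KO) on a scale from 0 for WT to 1 for KO. The 4 chow arrays of experiment 1, which took no part in that choice, lay at -0.02 and 0.10 (WT) and at 0.93 and 0.98 (KO). The 4 HFD arrays of experiment 1 lay in between, at 0.29 and 0.56 for those labelled WT and at 0.51 and 0.45 for those labelled KO. WT and KO therefore stand for the labels throughout, and the values described for diet and strain are also given without experiment 1.

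Has1 was the member with the largest difference between the tissues, and its aortic arrays did not overlap its muscle arrays. In aorta the levels were 4.50, 2.18 and 4.51 on the WT chow arrays (experiments 1 to 3 in turn), 3.57, 3.16 and 3.62 on WT HFD, 1.88, 2.66 and 3.25 on KO chow, and 4.04, 3.92 and 2.37 on KO HFD. In muscle they were -7.64, -6.74 and -4.94 on WT chow, -0.04, -5.89 and -7.40 on WT HFD, -2.43, -8.48 and -4.19 on KO chow, and -1.46, -5.78 and -7.93 on KO HFD. The lowest aortic level was thus 1.88 and the highest muscle level -0.04, and the probe was above background on 12 of 12 aortic but only 5 of 12 muscle arrays. The measured means differed by 8.55 (SE 0.85, n = 12 arrays per tissue), but the probe entered the fit through its aortic arrays alone, since no muscle group had all 3 arrays above background, so the size depends on unmeasured muscle signals and no p is given. Aorta was higher than muscle in 12 of 12 pools of mice, by 3.61 to 12.1. Muscle signals below background were also raised to the array's lowest signal above it, a choice made after seeing the data. The difference was then 7.96 (249.6-fold, SE 0.67), an estimate of the mean and not a bound for each pool.

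The promoter of Has1 is shown because Has1 had the largest difference of the 7 genes. It is the RefSeq window from 250 bases before to 50 bases after the gene's start (GRCm38.p6, chr17:17855139-17855438, minus strand, read 5′ to 3′ along the gene), with the letters of 2 motifs in capitals.
Has1: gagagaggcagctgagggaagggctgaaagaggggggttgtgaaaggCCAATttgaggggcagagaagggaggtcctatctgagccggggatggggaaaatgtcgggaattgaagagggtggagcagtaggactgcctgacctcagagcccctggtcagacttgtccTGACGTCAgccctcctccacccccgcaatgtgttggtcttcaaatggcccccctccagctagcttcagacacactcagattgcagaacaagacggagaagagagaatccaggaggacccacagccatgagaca
The capitals mark 1 cAMP response element (TGACGTCA, first base at -83 from the gene's start) and 1 CCAAT box (CCAAT). Of 32851 promoter windows of 300 bases, 1.79% hold the first motif and 37.4% the second, on either strand. A GC box (GGGCGG, in 35.7% of windows) and a TATA box (TATAAA, in 13.6%) were also searched on both strands and not found in the Has1 window. A match is a run of letters and was not tested as a binding site. The table used holds windows for 5 of the 7 genes and none for Has2 and Has3.

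Has2, the synthase that mouse embryos need for heart development, showed the same order of tissues. Its aortic levels were 1.82, -0.31 and 1.99 on WT chow, 1.65, 1.28 and -0.09 on WT HFD, -0.93, -0.02 and 0.04 on KO chow, and 0.61, 0.93 and -1.01 on KO HFD. Its muscle levels were -6.46, -5.57 and -7.48 on WT chow, -1.54, -7.14 and -5.42 on WT HFD, -3.57, -8.10 and -7.69 on KO chow, and -2.92, -5.20 and -8.12 on KO HFD. The tissues did not overlap, and 12 of 12 aortic and 5 of 12 muscle arrays were above background. Like Has1, it entered the fit through aorta alone. The measured means differed by 6.26 (SE 0.68), and by 5.52 (45.9-fold, SE 0.52) with the raised muscle signals. The tissue difference was positive in 12 of 12 pools, from 2.64 to 9.46.

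Has3, the synthase known for making shorter chains, ran the other way. Its aortic levels were -3.54, -1.13 and -4.0 on WT chow, -3.95, -3.03 and -2.17 on WT HFD, -3.14, -2.11 and -3.90 on KO chow, and -4.41, -3.59 and -2.07 on KO HFD. Its muscle levels were 0.54, 0.96 and -0.66 on WT chow, 0.30, -0.45 and 0.39 on WT HFD, -0.66, -1.05 and -1.46 on KO chow, and 0.89, -0.88 and -1.78 on KO HFD. The probe was above background on all 24 arrays, and aorta lay below muscle in 12 of 12 pools, although the highest aortic array (-1.13) lay above the lowest muscle arrays. The difference was -2.76 (6.79-fold lower in aorta, SE 0.39, limma adjusted p = 1.44e-05). The synthases of the same polymer thus differed between the tissues in opposite directions.

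**Figure D1:**
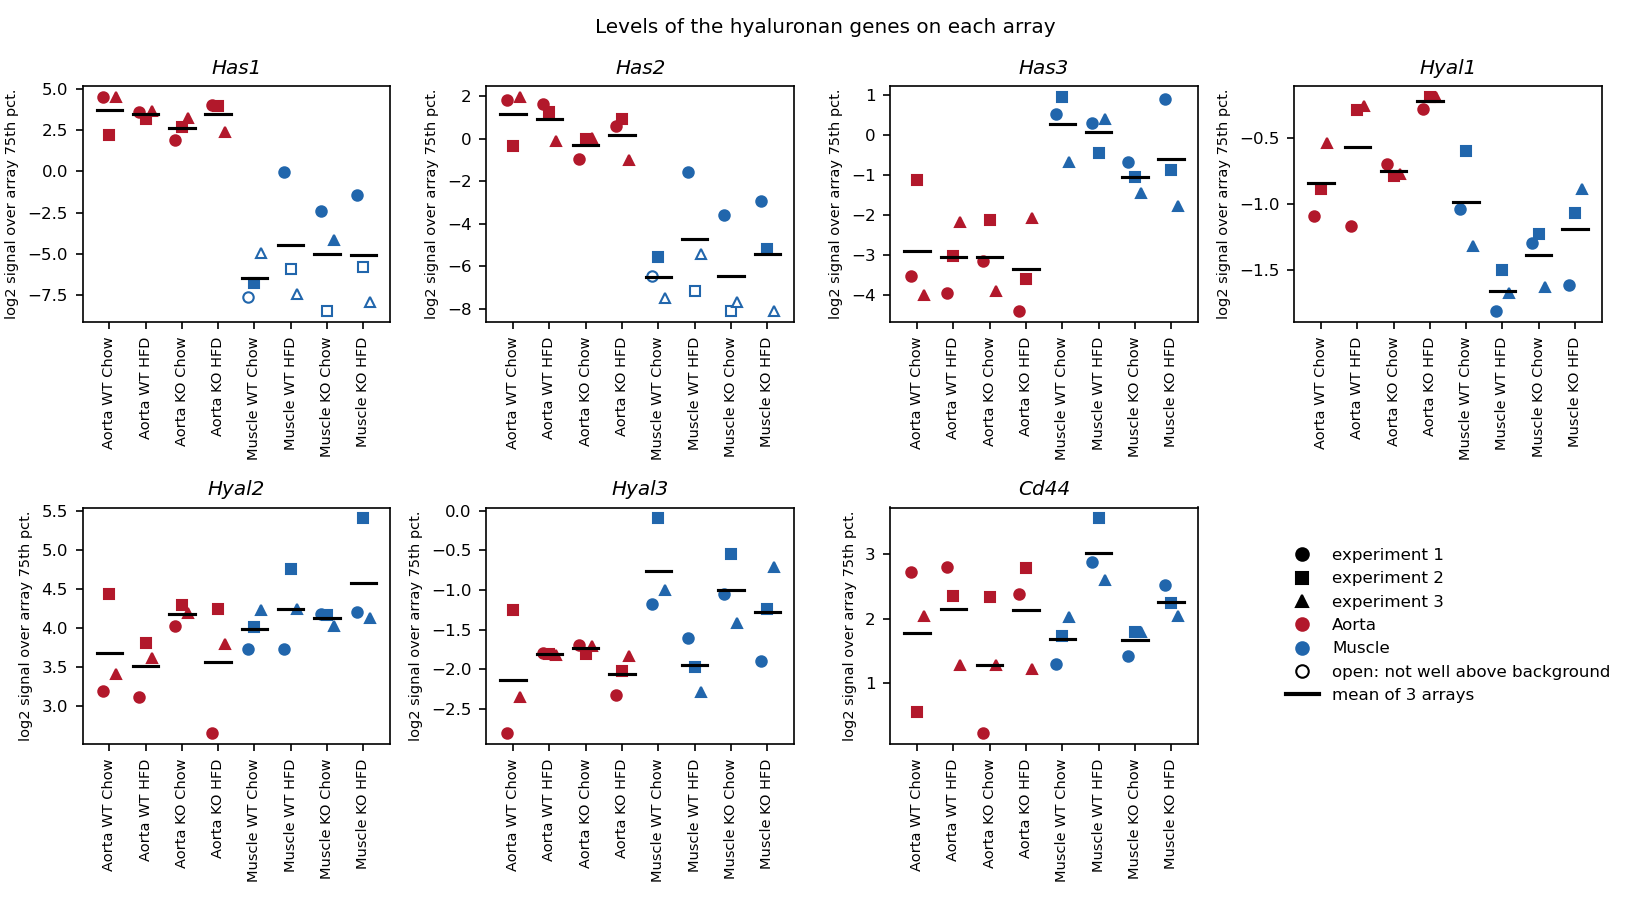
Log2 signal over the array's 75th percentile for the 7 genes (vertical axes differ) on each of the 24 arrays, by group of tissue, strain and diet; symbols give the experiment, bars the mean of 3 arrays, and open symbols arrays where the probe was not well above background. Has1 and Has2 lie far higher in aorta than in muscle, Has3 lies lower, and within muscle the highest Has1 and Has2 arrays are circles (experiment 1).

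The hyaluronidases differed between the tissues by less than the synthases did. Hyal1 was above background on all 24 arrays, from -1.17 to -0.18 in aorta (median -0.61) and from -1.82 to -0.59 in muscle (median -1.31). It was 0.71 higher in aorta (1.64-fold, SE 0.14, limma adjusted p = 0.000333), in 10 of 12 pools, and its second probe gave 0.73 (SE 0.16). Hyal3 lay from -2.80 to -1.25 in aorta and from -2.29 to -0.10 in muscle and was 0.68 lower in aorta (SE 0.19, limma adjusted p = 0.00667), in 10 of 12 pools. Its second probe differed by -0.14 only (SE 0.32, adjusted p = 0.741). The Hyal3 call was lost with slide as a random block (adjusted p = 0.0705), without experiment 1 (-0.67, adjusted p = 0.0503) and with the submitters' scaling (-0.42, adjusted p = 0.0910).

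Hyal2 lay from 2.65 to 4.44 in aorta and from 3.73 to 5.41 in muscle and was 0.50 lower in aorta (SE 0.21, 95% interval -0.94 to -0.06, limma adjusted p = 0.0569), which did not pass the threshold of 0.05. With the pool of mice as a block the adjusted p for the same difference was 0.0115. Cd44 lay from 0.24 to 2.80 in aorta and from 1.30 to 3.55 in muscle, and its difference of -0.32 did not pass the test (SE 0.28, 95% interval -0.91 to 0.26, adjusted p = 0.356). The ranges of both genes overlapped between the tissues.

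In all, 5 of the 7 genes passed the test between the tissues, Has1, Has2 and Hyal1 higher in aorta and Has3 and Hyal3 lower. The calls of Has1 and Has2 carry no support of their own, since both were tested only because they were high in aorta. Each slide held arrays of 1 tissue, and with slide as a random block 4 of the 7 were called, without Hyal3. Over all 27387 probes tested, 46.1% were called (12630 probes), 16% higher in aorta and 30.1% lower, so a call in this comparison was common. The median difference was -0.32 over the 7 genes and -0.27 over all probes tested. On the submitters' scaling, which sets the median near 0 (-0.01), 58.9% of the calls were higher in aorta instead of 34.6%, and all 7 genes kept their direction. Within each strain and diet (3 arrays per tissue), 4 of 7 genes were called in both WT diets, beside 15.5% of all probes on chow and 16.7% on HFD. In KO, 2 genes were called on chow, beside 6.4% of all probes, and 4 on HFD, beside 16.3%. Has1 and Has2 were among the called genes in all 4 groups and were the only ones in KO on chow. The counts within groups thus hold 2 calls without support of their own and cannot be read against the shares of all probes. With an experiment left out (2 arrays a tissue), the counts ranged from 1 to 3 and from 0 to 3 in WT and from 0 to 2 in KO, chow before HFD.

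The promoters of the 3 hyaluronidases are shown because the genes lie side by side on chromosome 9 and yet differed between the tissues in different directions. They are RefSeq windows of the same kind (GRCm38.p6, plus strand), at chr9:107568913-107569212 for Hyal2, chr9:107576700-107576999 for Hyal1 and chr9:107581046-107581345 for Hyal3. Capitals mark GC boxes and CCAAT boxes on either strand.
Hyal2: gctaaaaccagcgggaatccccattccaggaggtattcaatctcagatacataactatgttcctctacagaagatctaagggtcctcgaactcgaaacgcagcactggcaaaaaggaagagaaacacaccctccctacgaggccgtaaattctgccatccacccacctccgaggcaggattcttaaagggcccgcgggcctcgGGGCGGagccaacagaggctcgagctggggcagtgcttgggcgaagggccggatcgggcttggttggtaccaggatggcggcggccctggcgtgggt
Hyal1: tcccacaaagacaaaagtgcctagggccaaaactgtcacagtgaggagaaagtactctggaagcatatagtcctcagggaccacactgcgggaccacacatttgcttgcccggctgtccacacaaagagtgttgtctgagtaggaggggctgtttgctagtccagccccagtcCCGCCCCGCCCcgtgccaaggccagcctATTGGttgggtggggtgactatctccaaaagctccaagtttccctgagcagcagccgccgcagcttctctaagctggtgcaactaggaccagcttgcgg
Hyal3: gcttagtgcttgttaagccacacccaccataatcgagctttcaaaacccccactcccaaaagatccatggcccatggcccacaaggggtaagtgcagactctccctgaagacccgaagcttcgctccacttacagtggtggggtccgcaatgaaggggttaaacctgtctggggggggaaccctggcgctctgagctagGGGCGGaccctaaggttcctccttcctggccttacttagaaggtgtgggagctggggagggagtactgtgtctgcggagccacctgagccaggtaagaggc
Each window holds at least 1 GC box, and Hyal1 holds 2 of them and 1 CCAAT box. None of the 3 windows holds the cAMP response element or the TATA box. The Cd44 window also holds 1 GC box and none of the other 3 motifs.

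In the RefSeq gene order, 14 genes run from Zmynd10 to Slc38a3 around the hyaluronidases, and Naa80 overlaps both Hyal1 and Hyal3, which also overlap each other. Without the probes' positions, signal from overlapping genes cannot be told apart here. Of the 11 neighbours, 8 had a probe and 7 were tested between the tissues. Sema3b, a secreted guidance protein, was higher in aorta by 4.40 (SE 0.39), from 0.23 to 2.69 in aorta and from -4.23 to -0.70 in muscle. Gnai2, an inhibitory G protein subunit, differed by -0.93 (SE 0.13), Rassf1 differed by -0.72 (SE 0.14) and Slc38a3, an amino acid transporter, by -1.66 (SE 0.36). Naa80, which shares sequence span with Hyal1 and Hyal3, differed by -0.28 (SE 0.18, limma adjusted p = 0.219).

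**Figure D2:**
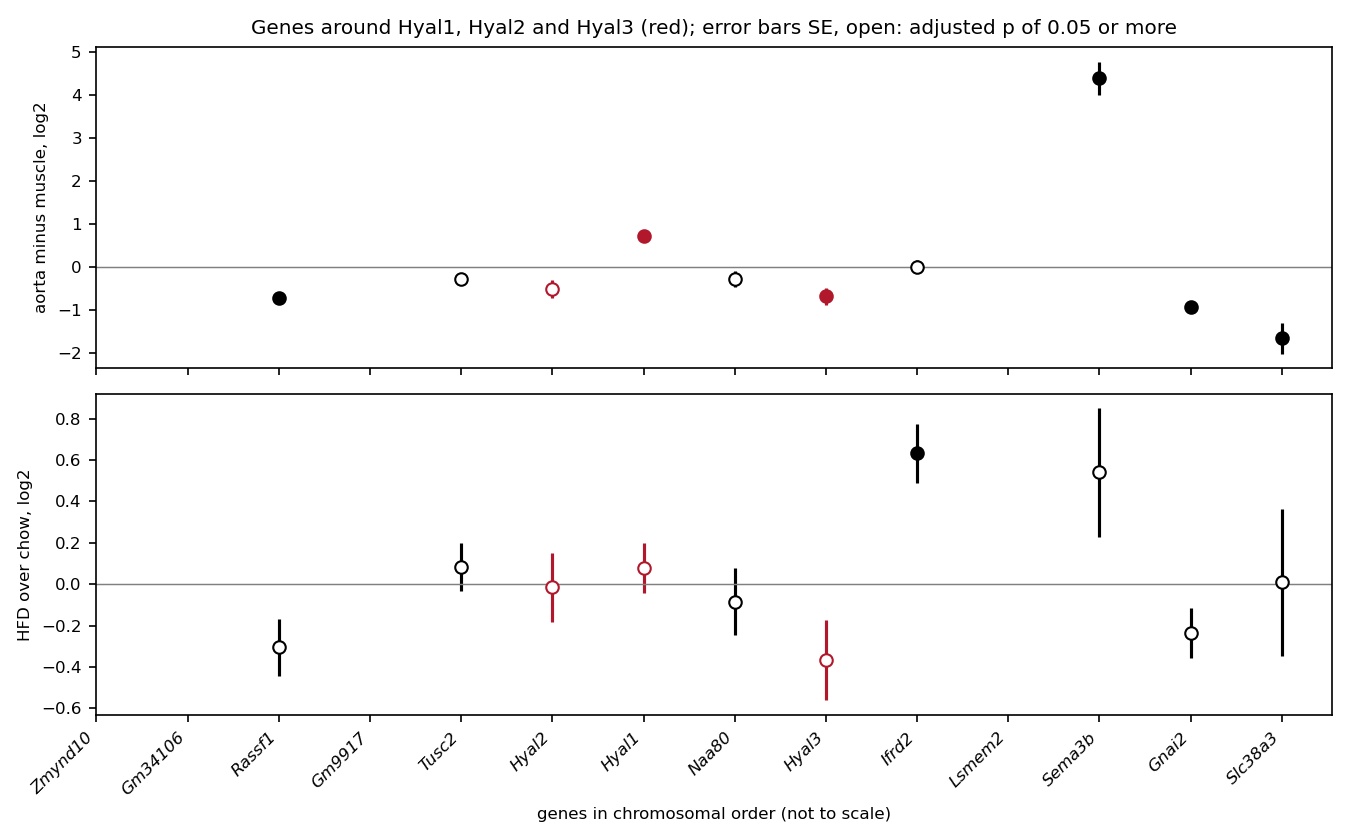
Differences of Hyal1, Hyal2 and Hyal3 (red) and the genes beside them in chromosomal order (not to scale): aorta minus muscle above, HFD over chow averaged over tissues and strains below, in log2 units with SE, filled where the limma adjusted p is under 0.05. Sema3b stands 4.40 higher in aorta while its neighbours lie near or below 0.

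The other genes of the pathway were taken from 5 lists, together 56 genes, of which 45 were tested between the tissues. Of these, 23 were higher in aorta and 7 lower, beside 16% and 30.1% of all probes tested. The counts include Ptx3, Hapln1 and Ncan, which were tested only through the tissue where they were high. The median difference of the 45 genes was 0.64, against -0.27 over all probes tested. Of the genes that supply the sugar precursors, 5 of 8 were higher in aorta and none lower. Gfpt2, an enzyme at the entry of the hexosamine pathway, was higher by 3.84 (SE 0.40), with 2.17 to 5.27 in aorta and -1.26 to 1.36 in muscle. Pgm3, a later step of that pathway, was higher by 2.43 (SE 0.18), with aorta from 0.93 to 2.81 and muscle from -1.0 to -0.30. Ugdh, which makes UDP-glucuronic acid, was higher by 1.46 (SE 0.23), and Gfpt1 and Gnpnat1 by 0.86 and 0.64. Gfpt2 and Pgm3 did not overlap between the tissues.

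Of 16 tested genes on the list of hyaluronan-binding matrix, 8 were higher in aorta and 2 lower. The list was used as drawn up, Bgn, Dcn and Habp4 included, and whether each protein binds hyaluronan was not examined. Of the genes called, Ptx3 and Hapln1 entered the fit through aorta alone and Ncan through muscle alone. The calls of those genes carry no support of their own. Ptx3, a pentraxin that takes part in cross-linking hyaluronan, was above background on 12 of 12 aortic and 2 of 12 muscle arrays. With the raised muscle signals its mean was higher in aorta by 4.03 (16.3-fold, SE 0.33). Vcan, the large proteoglycan versican, was higher by 3.72 (SE 0.34), and Tnfaip6, the enzyme that transfers inter-alpha-trypsin inhibitor heavy chains onto hyaluronan, by 2.62 (SE 0.30). The heavy chain genes Itih2 and Itih3 were higher by 2.34 and 1.79, Bgn and Dcn by 3.55 and 1.79, and Hapln1 was above background on 6 aortic and 0 muscle arrays. Hapln3, a link protein, was lower in aorta by 0.85 (SE 0.16). Ncan, the other gene called lower, was above background on 0 aortic and 5 muscle arrays, so no size is given for its difference. Dcn is also 1 of the 10 fibroblast markers.

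Of 8 genes for other hyaluronan receptors, 5 were higher in aorta, namely Lyve1, Hmmr, Tlr4, Tlr2 and Layn. Lyve1, the receptor of lymphatic vessels, was higher by 3.78 (SE 0.55), with 2.87 to 4.94 in aorta and -2.33 to 3.15 in muscle. Of 4 tested genes on the list of other degrading enzymes, the lysosomal Hexa, Idua and Gusb were higher in aorta, by 1.68, 1.27 and 0.36. Idua stays in the counts as listed, although its enzyme acts on other glycosaminoglycans and not on hyaluronan. Cemip2, a cell surface hyaluronidase, was lower by 0.97 (SE 0.30). Spam1, Hyal5 and Hyal6 were above background on no array.

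Of 9 tested genes around Cd44, Mmp14, a protease that sheds it, and Ezr were higher in aorta by 1.81 and 1.22. Msn, Srgn, Nf2 and Adam17 were lower, Msn by 0.93 (SE 0.15), with aorta from 2.78 to 3.89 and muscle from 3.61 to 4.98. Ezrin and moesin genes, which link the same receptor to actin, thus differed in opposite directions.

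**Figure D3:**
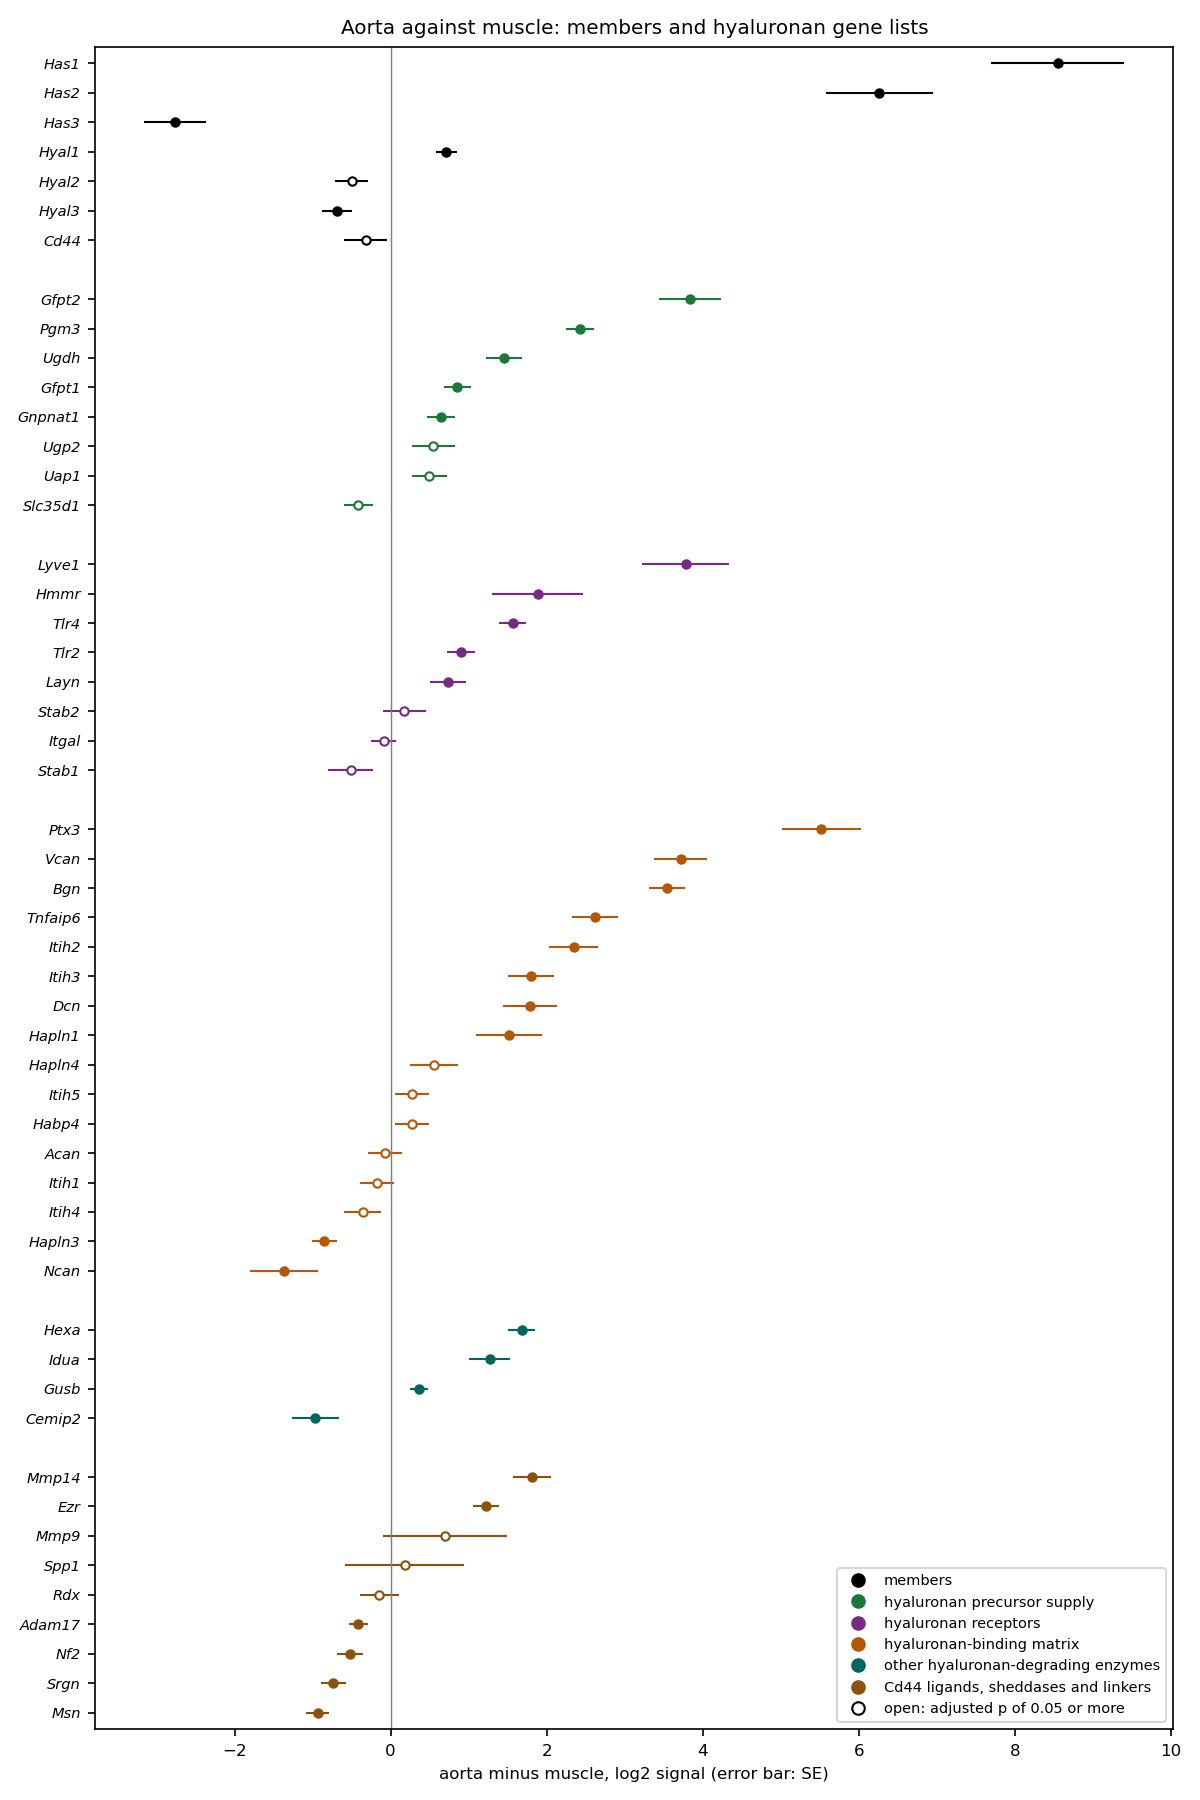
Aorta minus muscle, in log2 units with SE (n = 12 arrays per tissue), for the 7 genes and for the tested genes of the 5 hyaluronan lists, filled where the limma adjusted p is under 0.05. Most precursor, matrix and lysosomal genes lie to the right of 0 (higher in aorta), with Has1 at 8.55 and Has3 at -2.76 at the ends. For Has1, Has2 and Ptx3, mostly below background in muscle, the plotted differences are as measured.

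The markers of other cells also varied between the arrays. In muscle, the 3 arrays with the highest fibroblast marker levels (3.18, 2.89 and 2.07) were arrays of experiment 1 and had the 3 highest levels of Has1 (-0.04, -1.46 and -2.43) and of Has2 (-1.54, -2.92 and -3.57). They also had the 3 highest levels of the lymphatic endothelial markers (-0.13, -0.94 and -0.43) and of the skeletal muscle fibre markers (3.56, 3.73 and 3.26). The WT chow array of experiment 1 had the next highest fibroblast level (1.61) and Has1 and Has2 at -7.64 and -6.46, both not above background. In aorta, the lowest Cd44 levels (0.24 and 0.56) stood on the arrays with the 2 lowest fibroblast levels (4.38 and 3.89) and the 2nd highest and highest endothelial levels (4.03 and 4.07). The 3 lowest Hyal2 levels in aorta (2.65, 3.12 and 3.19) were on experiment 1 arrays with endothelial levels of 2.41, 2.05 and 3.00. The experiment 2 HFD arrays, with endothelial levels of 2.67 (KO) and 2.88 (WT), had Hyal2 at 4.24 and 3.81. Between the tissues, the fibroblast level of every aortic array lay above that of every muscle array and the endothelial level of every aortic array below it. The 7 lymphatic endothelial markers, Lyve1 among them, had mean levels of -0.81 to 0.86 in aorta (median 0.05) and -3.83 to -0.13 in muscle (median -2.03). Skeletal muscle fibre markers ran the other way, with medians of -4.27 in aorta and 1.63 in muscle. Smooth muscle and pericyte markers did so too, with medians of 1.09 and 2.14. Without experiment 1 the differences of Has1, Has2 and Has3 were 9.63, 7.19 and -2.13. Mesothelial markers lay low in both tissues, from -7.47 to -5.59 in aorta and from -8.54 to -6.12 in muscle, and 4 of 7 were above background on no muscle array. Macrophage markers lay at -4.73 to -1.69 in aorta and -6.19 to -0.07 in muscle. The part of other cells in the tissue differences was not tested, and in such pools more cells of a type and more RNA per cell cannot be told apart.

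**Figure D4:**
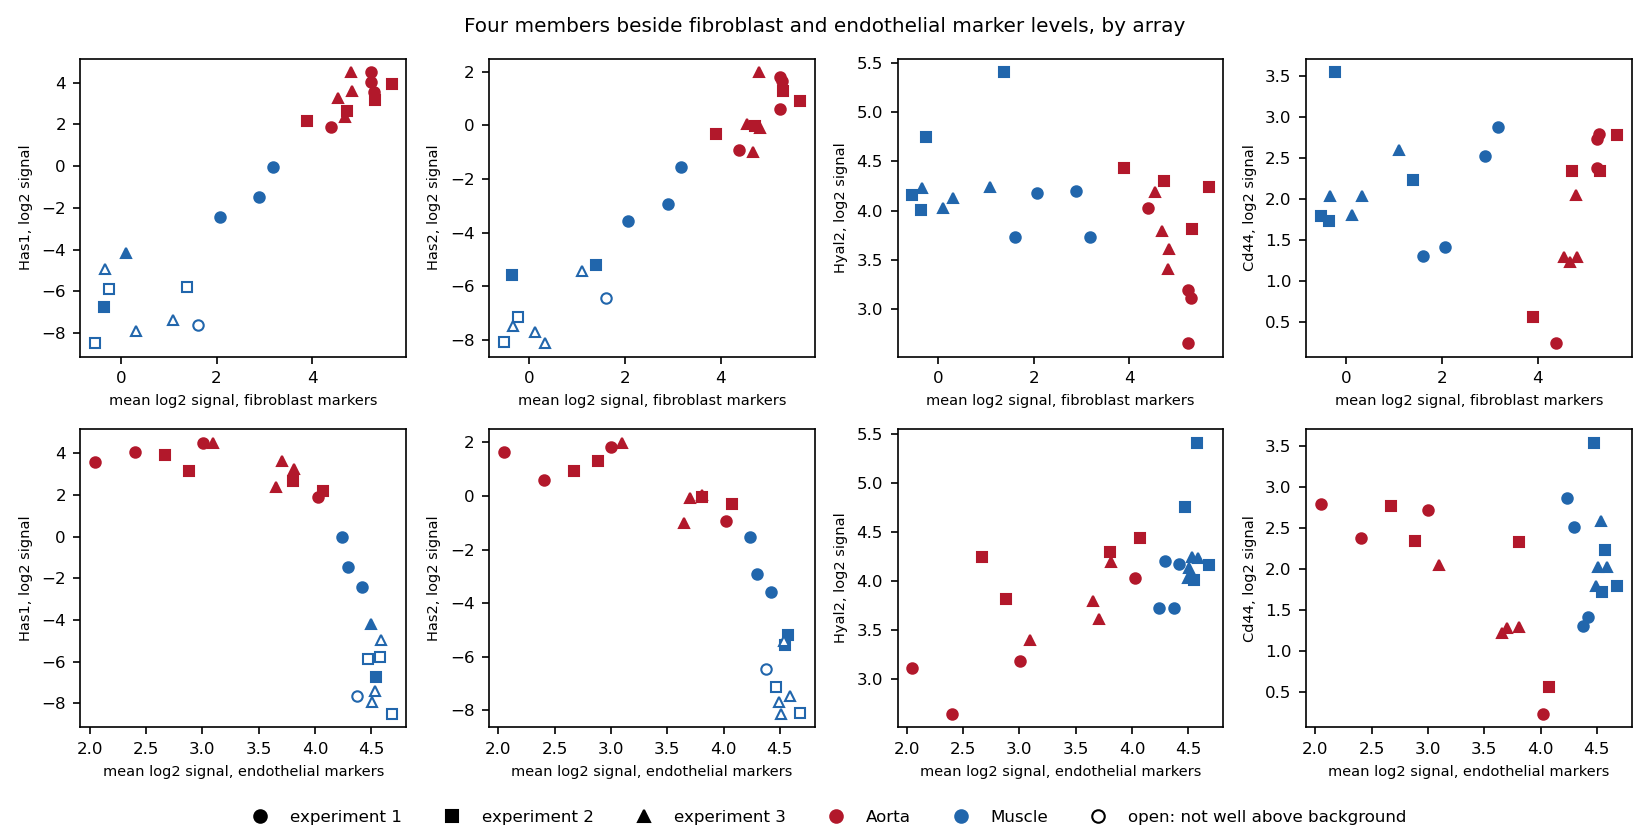
Log2 level of Has1, Has2, Hyal2 and Cd44 on each of the 24 arrays against the mean log2 level of the fibroblast markers (top) and endothelial markers (bottom); colours give the tissue, symbols the experiment, and open symbols arrays where the gene was not well above background. In muscle the 3 arrays with the highest Has1 and Has2 are those with the highest fibroblast level, all of experiment 1.

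HFD was compared with chow within each strain, tissue and experiment, to ask how diet changed the genes. No member passed the test in WT aorta, KO aorta, WT muscle or KO muscle, where limma called 0%, 0%, 0% and 0.00389% of all probes (0, 0, 0 and 1 probe). At an unadjusted p under 0.05, 1493, 2910, 3098 and 2181 probes passed, and 0, 0, 3 and 0 of the members. The methods' t-test on the same ratios called no probe after adjustment either, with 1218, 1736, 2118 and 1287 probes at an unadjusted p under 0.05. Averaged over both tissues and strains, 2.79% of probes were called (763 of 27387) and 0 of 7 members. With experiments 1, 2 and 3 left out in turn, the same average called 14, 0 and 9 probes and 0 members each time.

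Cd44 was higher on HFD in 10 of 12 pairs. The log2 ratios of HFD over chow in muscle were 1.56, 1.82 and 0.56 in WT and 1.1, 0.44 and 0.24 in KO, all above 0. In aorta they were 0.07, 1.78 and -0.76 in WT and 2.14, 0.44 and -0.06 in KO, and spread around 0. In WT muscle the mean ratio was 1.32 (2.49-fold, SE 0.31, 95% interval 0.57 to 2.06), with unadjusted p = 0.00431 and adjusted p = 0.225 in the limma fit, and the 3 HFD arrays (2.87, 3.55 and 2.59) lay above the 3 chow arrays (1.30, 1.72 and 2.03). Without experiment 1 it was 1.19. The share of all probes whose HFD and chow arrays separate so is not given. The average over tissues and strains was 0.78 (SE 0.25, limma adjusted p = 0.112), and 0.56, 0.61 and 1.17 with experiments 1, 2 and 3 left out in turn. The second probe gave 0.75 (SE 0.21, adjusted p = 0.0750).

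The other cell markers moved with diet as well. The fibroblast marker level was higher on HFD in 6 of 6 pairs of aorta, by 0.02 to 1.41, and in 6 of 6 pairs of muscle, by 0.11 to 1.92. The macrophage marker level in muscle was higher on HFD in 5 of 6 pairs (median 1.75) and in aorta lower in 5 of 6 (median -1.08), although macrophages carry CD45 and the CD45- gate should leave them out. The endothelial level was lower on HFD in 5 of 6 pairs of each tissue, by up to 1.62 in aorta and 0.14 in muscle, and the adipocyte level was lower in 6 of 6 pairs of aorta. Their part in the Cd44 ratios was not tested.

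Hyal1 and Hyal3 had lower ratios in WT muscle. The log2 ratios of Hyal1 in muscle were -0.78, -0.91 and -0.36 in WT and -0.32, 0.16 and 0.75 in KO. All WT ratios lay below all KO ratios, as they did for the second probe, whose difference was 1.16 (SE 0.42). The share of all probes whose ratios separate so is not given, so the separation is no result about Hyal1. The WT mean was -0.68 (SE 0.27, limma adjusted p = 0.386) and the KO mean 0.20 (SE 0.27), and their difference of 0.88 (SE 0.38, 95% interval -0.02 to 1.77) had an adjusted p of 0.999 in the limma fit. Without experiment 1 the WT mean was -0.63 and the difference 1.08. The exact permutation test of 3 against 3 ratios, 2-sided, gave p = 0.1, which is the smallest it can give. In aorta the ratios of Hyal1 were -0.08, 0.60 and 0.28 in WT and 0.42, 0.60 and 0.59 in KO.

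The log2 ratios of Hyal3 in muscle were -0.42, -1.87 and -1.28 in WT and -0.85, -0.69 and 0.70 in KO. The WT mean of -1.19 (SE 0.40, limma adjusted p = 0.318) was not called, and the HFD arrays (-1.60, -1.97 and -2.29) lay below the chow arrays (-1.18, -0.10 and -1.0). Without experiment 1 it was -1.58. For this separation of HFD and chow arrays, too, the share of all probes is not given. The study listed Hyal3 in muscle from these same arrays, so its ratio is not independent evidence. Over both tissues Hyal3 was lower on HFD in 9 of 12 pairs, with an average of -0.37 (SE 0.20, limma adjusted p = 0.296), and -0.13 without experiment 2.

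Hyal2 had mean ratios below 0 in aorta and above 0 in muscle in both strains, a difference that was not called. Its ratios in aorta were -0.07, -0.62 and 0.21 in WT and -1.38, -0.06 and -0.40 in KO. The muscle ratios were -0.00, 0.74 and 0.01 for WT and 0.02, 1.25 and 0.10 for KO, and only the experiment 2 pairs lay far from 0. The response in aorta was 0.74 below that in muscle (SE 0.33, unadjusted p = 0.0479, adjusted p = 0.535 in the limma fit), and -0.75, -0.45 and -1.04 with experiments 1, 2 and 3 left out in turn, and 0% of the 27387 probes were called in that comparison (2530 at an unadjusted p under 0.05). The aorta-minus-muscle response of Hyal1 was 0.64 (limma adjusted p = 0.448), and 0.61 without experiment 1.

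The synthases had the widest ratios. In aorta the ratios of Has1 were -0.92, 0.98 and -0.89 in WT and 2.16, 1.26 and -0.88 in KO, and those of Has2 were -0.17, 1.60 and -2.08 in WT and 1.54, 0.95 and -1.05 in KO. Those of Has3 were -0.41, -1.90 and 1.83 in WT and -1.27, -1.48 and 1.83 in KO, opposite in sign to Has2 in 5 of 6 pairs. Each of the 3 genes had ratios on both sides of 0 within a strain. Has1 and Has2 were not tested within muscle, since no muscle group had all 3 arrays above background. The ratios of Has3 in muscle lay between -1.41 and 1.56.

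**Figure D5:**
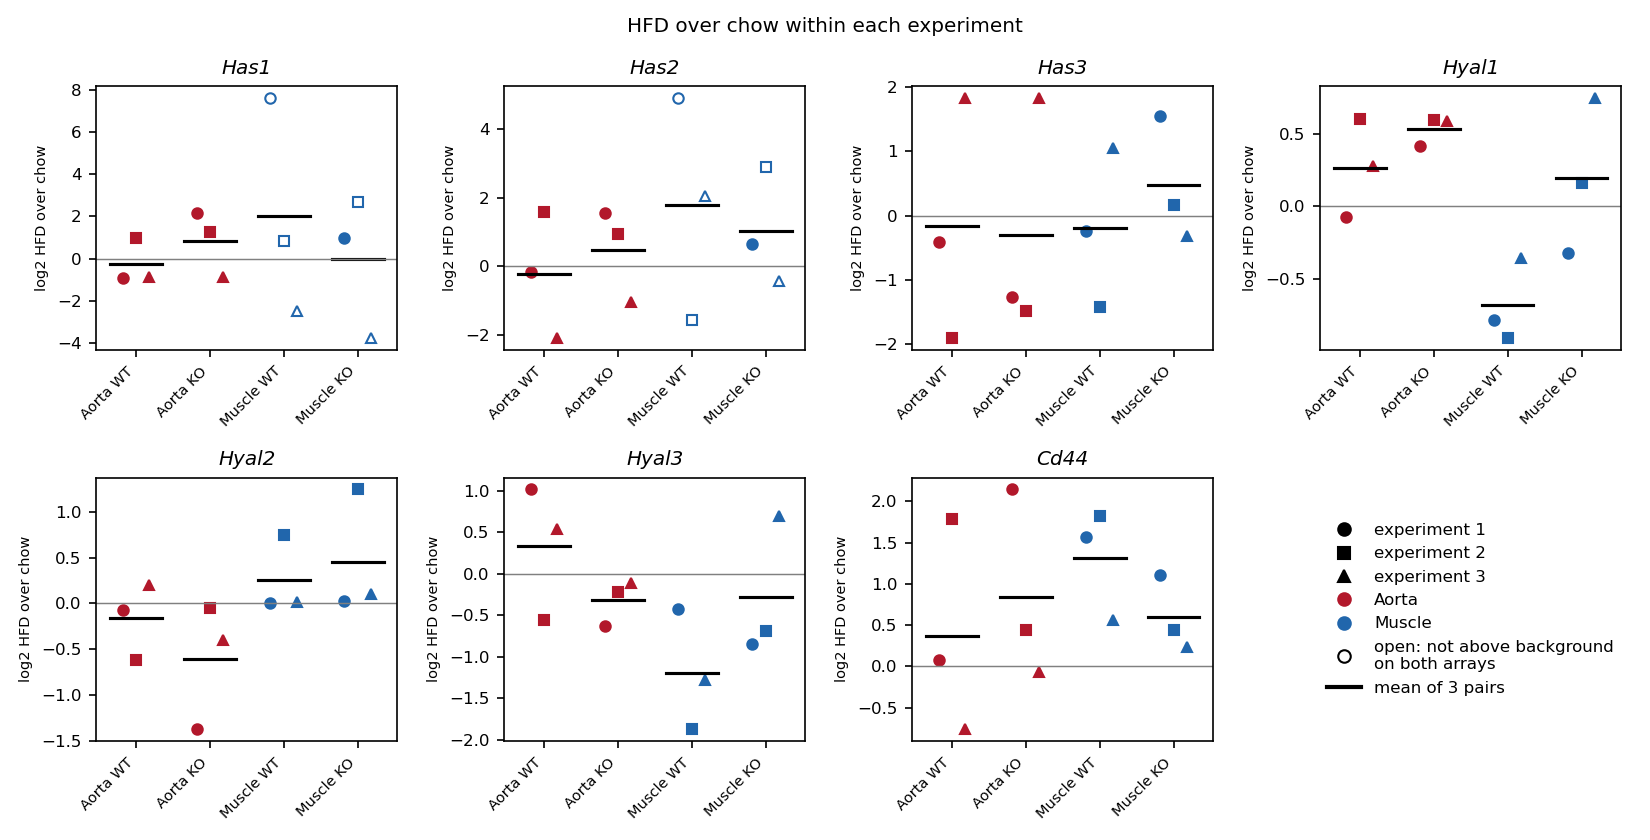
Log2 ratio of HFD over chow for the 7 genes in each of the 12 pairs of arrays from the same tissue, strain and experiment; bars are the mean of 3 pairs, symbols the experiment, and open symbols pairs in which the probe was not well above background on both arrays. The 6 muscle ratios of Cd44 all lie above 0, while the ratios of Has1, Has2 and Has3 fall on both sides.

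Other genes of the pathway also showed few changes with diet. Of 45 tested genes of the 5 lists, 1 passed the test averaged over tissues and strains. This was Gusb, the lysosomal beta-glucuronidase, higher on HFD in 12 of 12 pairs by an average of 0.51 (1.42-fold, SE 0.11, limma adjusted p = 0.0376), and it was not called when any 1 experiment was left out. Vcan had an average ratio of 1.02 (SE 0.26, adjusted p = 0.0614) and was higher on HFD in 10 of 12 pairs. Among the neighbours of the hyaluronidases, Ifrd2 was called, with an average of 0.63 (SE 0.14, adjusted p = 0.0447) and a higher level on HFD in 11 of 12 pairs. It too was not called when any 1 experiment was left out.

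Between the strains no member passed the test. Over all arrays, with tissue and diet in the fit, 0.139% of probes (38 of 27387) and 0 of 7 members were called, and 34, 0 and 0 probes with experiments 1, 2 and 3 left out in turn. The differences KO minus WT by label were -0.32 for Cd44 (SE 0.27), -0.09 for Has1 (SE 0.82), -0.73 for Has2 (SE 0.65), -0.62 for Has3 (SE 0.38), 0.13 for Hyal1 (SE 0.14), 0.25 for Hyal2 (SE 0.20) and 0.14 for Hyal3 (SE 0.20). Those of Has1 and Has2 rest in part on unmeasured signals, since both probes were above background on only 5 of 12 muscle arrays. All 7 of the 95% intervals held 0, the narrowest being that of Hyal1 (-0.17 to 0.43). The fit took the aorta and muscle arrays of a pool as separate, although they deviated together (r over 0.1) in 12 of 12 pairs. Its SEs and intervals are therefore not those between pools. Without experiment 1 the differences ran from -0.84 (Has3) to 0.22 (Hyal2), and that of Cd44 was -0.08 (-0.59 without experiment 2). Within a tissue and diet, 0 members were called in each of the 4 comparisons, of 7 tested in aorta and 5 in muscle. There 0.0116%, 0.00387%, 0% and 0% of all probes were called (aorta chow, aorta HFD, muscle chow, muscle HFD). The response to HFD also did not differ between the strains for any tested member at the threshold, in aorta or in muscle. Neither comparison called a probe (0% of probes, with 677 and 1059 at an unadjusted p under 0.05).

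Over the 8 groups, ordered by mean level, most neighbouring groups lay closer than the larger of their SDs. For Has1, Has2 and Has3 the only gap wider than that was the one between the tissues. Cd44 was highest in WT HFD muscle (3.00 ± 0.49, SD, n = 3), above KO HFD muscle (2.26 ± 0.24), and the remaining groups from WT HFD aorta (2.14 ± 0.78) to KO chow aorta (1.29 ± 1.05) did not differ from their neighbours in the order. Hyal1 was highest in KO HFD aorta (-0.22 ± 0.05) and lowest in WT HFD muscle (-1.66 ± 0.16), which was the only group set apart from its neighbour by more than the SD. The 8 means of Hyal2 ran from 4.58 ± 0.72 in KO HFD muscle to 3.51 ± 0.36 in WT HFD aorta with no such gap. Hyal3 ran from -0.76 ± 0.58 in WT chow muscle to -2.14 ± 0.80 in WT chow aorta, with 1 gap of 0.07 between KO chow aorta and WT HFD aorta.

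The genes whose levels ran most like each member were found by Pearson's r over the 24 arrays after the mean of each tissue was subtracted, given as a description. The 3 most like Has1 were Cpz (0.91), Pcsk5 (0.85) and C1ra (0.85), and those most like Has2 were Ugt1a6b (0.91), Col1a1 (0.89) and Fbln1 (0.86). Col1a1 and Fbln1 are also among the fibroblast markers. For Has3 they were Soga1 (0.79), Pde4b (0.77) and Dvl1 (0.75). For Hyal1 they were Golgb1 (0.75), Eipr1 (0.69) and Hdac6 (0.68), the lowest values of the 7. For Hyal2 they were Ecscr (0.91), which encodes an endothelial surface protein, Mtus1 (0.89) and Klk8 (0.89). For Hyal3 they were Trim39 (0.81), Cdc42bpa (0.78) and Arhgap8 (0.77), and for Cd44 they were Add3 (0.87), Pycard (0.86) and Nipa1 (0.85). For the 3 genes most like Has1, r was 0.72 to 0.78 within aorta and 0.87 to 0.95 within muscle. For those most like Has2 it was 0.54 to 0.85 within aorta and 0.91 to 0.96 within muscle. In muscle, Has1 and Has2 were above background on only 5 of 12 arrays, so their values rest in part on unmeasured signals. The arrays share slides, pools of mice and the markers described above, so the values of r carry no test.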

How the data were processed

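Sorted endothelial cell RNA was amplified, labelled with Cy3 and hybridised by the authors to 24 Agilent whole mouse genome arrays (1 colour), 4 per slide. Per the file headers, Feature Extraction 10.5.1.1 made the deposited processed intensities (the submitters' processing notes name version 9.1). A deposited log2 table equals these values plus a constant per array, set differently for the 2 tissues. Here log2 intensity was centred on each array's 75th percentile, spots of a probe were averaged, outlier spots left out, and probes named through their accessions (27198 of 41174 named, 18539 symbols). A probe was tested where all 3 arrays of 1 or more groups were above background, with limma 3.58.1 (R 4.3.3) and Benjamini-Hochberg adjustment over all probes, at 0.05. HFD against chow was fitted with each strain and experiment as a block, after the study's within-experiment ratios, and HFD and chow arrays of an experiment deviated together in 10 of 12 pairs (r over 0.1, median 0.34). Aorta and muscle of a pool did so in 12 of 12 pairs (median 0.43), and KO and WT of a tissue, diet and experiment in 12 of 12 (median 0.48). The tissue and strain fits had no block, so they used neither pairing. The members and lists were chosen with earlier results of these data known, and 1 list gene is not reported here. Named genes are the members, the called genes of the lists and the 3 genes most like each member. Within a tissue, p-values measure the spread between these pools of mice, and the number of pools limits the precision. Without a block by pool, those of fits over both tissues measure the spread between arrays or pairs. Such fits take the aorta and muscle of a pool as separate. The fits were run on simulated arrays with independent noise, with changes planted only in probes above background on every array. That run cannot check shared slides, pools or experiments, nor signals below background such as those of Has1 and Has2 in muscle. Alternatives were normexp (offset 50) on median signals, quantile normalization, the deposited table, 2 other filters on dim probes, the mean of a gene's probes, each experiment left out, other blocks and the methods' t-test.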

Additional observations from a re-analysis of the deposited data

Results flagged for a closer look

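The log2 ratio of HFD over chow of Hyal2 was below 0 in all 3 KO pairs of aorta (-1.38, -0.06 and -0.40) and above 0 in all 3 KO pairs of muscle (0.02, 1.25 and 0.10), a difference of -1.07 between the tissue means. It is listed because the KO ratios had opposite signs in the tissues. The share of all probes that do so is not given, and the ratios of -0.06, 0.02 and 0.10 lay near 0. The difference within KO was not tested. Over both strains it was -0.74 (SE 0.33) with an unadjusted p of 0.0479 and an adjusted p of 0.535 in the limma fit, and -0.75, -0.45 and -1.04 with experiments 1, 2 and 3 left out in turn. Leaving out the experiment 1 arrays, which lie between the strains, leaves KO ratios of -0.06 and -0.40 in aorta and 1.25 and 0.10 in muscle.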

How the results depend on the processing

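Of 64 tested or averaged values of single genes, recomputed under up to 15 other settings, all settings that kept every array kept the direction, and 24 comparisons with 1 experiment left out turned it, all of them in values that passed no test. In WT aorta the ratio of HFD over chow then ranged from -0.0092 to 0.77 (Hyal3), -0.90 to 0.049 (Has1), -0.35 to 0.067 (Hyal2), -1.16 to 0.71 (Has3), -0.35 to 0.93 (Cd44) and -1.12 to 0.72 (Has2). In KO aorta it ranged from -0.048 to 1.25 (Has2) and -1.37 to 0.28 (Has3), in WT muscle from -0.83 to 0.41 (Has3), and in KO muscle from -0.77 to 0.0047 (Hyal3), -0.074 to 0.87 (Has3) and -0.080 to 0.45 (Hyal1). The average over tissues and strains ranged from -0.19 to 0.15 (Hyal2), -0.27 to 1.95 (Has1), -0.62 to 0.50 (Has3) and -0.038 to 0.21 (Hyal1), the KO minus WT response in aorta from -0.43 to 0.21 (Has3) and -0.32 to 1.39 (Cd44), the aorta minus muscle response from -1.28 to 0.20 (Has3) and -2.16 to 0.78 (Has1), and KO against WT from -0.0083 to 0.28 (Hyal3) and -0.33 to 0.16 (Has1). Between the tissues, the adjusted p of Hyal2 (-0.50, 0.0569) was 0.0474 with normexp, 0.0463 with only probes above background on every array and 0.0115 with a replicate block by pool of mice. That of Hyal3 was 0.0910 with the deposited table, 0.133 with the mean of its probes, 0.0705 with slide as a random block and 0.0503 without experiment 1. Genes called between the tissues within a group became 2, 2, 0 and 2 of 7 (WT chow, WT HFD, KO chow, KO HFD) with only probes above background on every array, a filter that leaves out Has1 and Has2, and 1 to 3, 0 to 3, 0 to 2 and 0 to 2 with an experiment left out. Averaged over tissues and strains, 2 list genes instead of 1 were called with diet after quantile normalization, and 0 list genes and 0 neighbours with any experiment left out. With 2 pairs a group, 3 to 7 genes and tissues instead of 1 had WT and KO ratios that did not overlap. So few ratios separate easily and the share over all probes is not given, so these counts are no result about the genes. Over all probes, 763 calls with diet became 1356 (normexp), 1180 (quantile), 203 (no filter), 1395 (every array), 14, 0 and 9 (without experiment 1, 2 and 3), and the 38 strain calls 34, 0 and 0. The pairing mattered likewise, with 535 diet calls without the replicate block and 1837 with a replicate block by slide, and 60 strain calls with the latter, and in each of these 0 members were called. With slide as a random block, 7715 instead of 12630 probes and 4 members instead of 5 were called between the tissues, and with the replicate block by pool 15402 and 6 (within KO HFD 6 instead of 4). The causes were not tested. Signals below background limit Has1 and Has2 in muscle.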
